A study of Mus musculus with 12 samples.

Results

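The adrenal cortex of 4 icosapent ethyl–treated mice was compared with that of 4 LFD mice, which are 8 of the 12 mice of the study, chosen by the treatment in their labels. The icosapent ethyl–treated mice were fed a HFD, with 60% of its energy as fat, for 20 weeks, and icosapent ethyl was added to this diet over the last 10 weeks. The LFD mice, called normal diet in the labels and numbered 2, 5, 6, and 7, were fed a diet with 10% of its energy as fat for 20 weeks. Whether these groups were fed at the same time is not given in the sources used here. The remaining 4 mice were fed the HFD without supplement for 20 weeks and are used here only to read which differences of the fatty diet were also present under supplementation. The study describes the HFD and LFD mice as male wild-type C57BL/6J mice, 6 weeks old when feeding began, and the icosapent ethyl–treated mice as wild type of the same strain, with their sex and age not given in the sources used here, whereas the labels give the genotype Fads2-/- for all 12. *Fads2* read counts were present in every mouse: 452, 701, 714, and 799 CPM in LFD mice and 1120, 589, 901, and 1696 CPM in icosapent ethyl–treated mice (CPM, read counts scaled to a common library size). Counts per gene cannot show whether a part of a gene is deleted, and the 2 descriptions of the genotype were not resolved. No group of supplemented LFD mice is part of the comparison, so the diet and the supplement differ together between its 2 groups.

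Icosapent ethyl is the purified ethyl ester of eicosapentaenoic acid, an omega-3 polyunsaturated fatty acid. The adrenal cortex makes corticosteroids from cholesterol, which its cells take up from lipoproteins, synthesize themselves, or release from esters stored in lipid droplets. Its cells also activate, desaturate, elongate, oxidize, and esterify fatty acids, and resident macrophages lie among them and take up lipids and debris. Polyunsaturated fatty acids are ligands or modulators of transcription factors that control fatty acid oxidation, cholesterol synthesis, and cholesterol efflux.

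The LFD libraries held 44091587 to 46874227 counted reads and the libraries of icosapent ethyl–treated mice 34785979 to 67295963. The tissue label was met by its markers: the summed CPM of 6 zona fasciculata markers ranged from 32988 to 55279 in LFD mice and from 44625 to 75348 in icosapent ethyl–treated mice. Other cells were present in both groups. The 12 markers of chromaffin cells of the adrenal medulla summed to between 6297 and 22196 CPM in LFD mice and to between 5436 and 10754 CPM in icosapent ethyl–treated mice, and none of the 12 was at 0. The 10 adipocyte markers summed to between 253 and 449.6 CPM and between 337 and 496 CPM, and the 5 kidney and liver markers to at most 0.134 CPM and at most 13.3 CPM, respectively. The part of these cell types in the differences below was not tested. Because whole tissue was sequenced, fewer cells of a type and less RNA per cell cannot be told apart for any gene reported here.

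*Acsl1* led the genes that were higher than in LFD mice. *Acsl1*, which encodes an enzyme that couples long-chain fatty acids to coenzyme A, was 47.2, 49.7, 57.2, and 50.8 CPM in LFD mice and 80.4, 75.5, 79.9, and 77.3 CPM in icosapent ethyl–treated mice. Every supplemented mouse lay above the range of the LFD mice, as the choice of the leading genes required. The log2 fold change was 0.61 ± 0.0835 (SE, 95% interval 0.43 to 0.80). Nevertheless, the gene did not pass the threshold of 0.05 in edgeR's quasi-likelihood test over all genes (adjusted p = 0.153).

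By edgeR, 0 of 15935 genes (0%) reached an adjusted p of 0.05, and the lowest adjusted p, 0.153, was shared by 31 genes. By the unadjusted p below 0.05, 1162 genes (7.29%) were higher and 1063 (6.67%) were lower in icosapent ethyl–treated mice, and in 644 (4.04%) and 588 (3.69%) all supplemented mice lay above or below all LFD mice. DESeq2, run as an alternative on the same counts, called 417 of 15501 genes (2.69%), of which 217 were higher and 200 lower, whereas limma-voom called 0 and left 2591 genes below an unadjusted p of 0.05. The number of genes past the threshold thus depended on the tool, and the values of each mouse are given for the genes below. The median log2 fold change over all genes tested was −0.00367, and the median absolute log2 fold change, 0.189, was about as large as the median SE, 0.188.

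*Acsl1* (ENSMUSG00000018796) lies on chromosome 8 of the GRCm38 build, at chr8:46471037-46536051 on the plus strand. RefSeq lists 2 transcription start sites for it. The 250 bases before each are shown because *Acsl1* led the genes that were higher. Those before the start of *Hmgcs1*, an enzyme of cholesterol synthesis, are shown as well. *Hmgcs1* was chosen for display after its values and sequence were seen. Capitals mark a match to the sterol regulatory element TCACNCCAC, a binding motif of the SREBP factors, on either strand.
Acsl1, upstream start (chr8:46470787-46471036, plus strand): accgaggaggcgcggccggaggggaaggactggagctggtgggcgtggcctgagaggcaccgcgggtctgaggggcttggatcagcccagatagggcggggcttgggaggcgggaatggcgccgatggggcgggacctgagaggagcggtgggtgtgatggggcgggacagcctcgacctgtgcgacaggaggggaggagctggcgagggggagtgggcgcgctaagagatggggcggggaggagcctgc
Acsl1, downstream start (chr8:46490716-46490965, plus strand): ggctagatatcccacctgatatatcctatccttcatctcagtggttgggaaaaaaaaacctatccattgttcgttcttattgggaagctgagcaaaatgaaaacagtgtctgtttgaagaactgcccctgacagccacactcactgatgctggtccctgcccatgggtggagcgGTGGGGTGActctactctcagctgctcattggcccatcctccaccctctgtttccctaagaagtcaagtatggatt
Hmgcs1 (chr13:119690101-119690350, plus strand): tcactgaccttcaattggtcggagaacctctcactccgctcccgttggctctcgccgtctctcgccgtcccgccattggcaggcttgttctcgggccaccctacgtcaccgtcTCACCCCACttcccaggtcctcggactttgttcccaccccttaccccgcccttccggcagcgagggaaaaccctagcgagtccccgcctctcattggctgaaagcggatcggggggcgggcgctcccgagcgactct
The match before the downstream *Acsl1* start spanned bases 76 to 68 before the start, on the minus strand. The match in *Hmgcs1* spanned bases 137 to 129, on the plus strand. Of all 32851 such windows, 346 (1.05%) held this motif. Counted by gene, 148 of 11683 tested genes with a window (1.27%) held it, and 1 of the 19 cholesterol synthesis genes with a window did. The steroidogenic factor 1 motif CAAGGTCA was found in 438 windows (1.33%) and the core of the PPAR direct repeat, GGTCANAGG, in 471 (1.43%), and neither was in the 3 windows shown. The motifs do not overlap one another in these windows, and a match describes letters, not binding. *Hmgcs1* itself was 67.9, 91.9, 75.3, and 104 CPM in LFD mice and 121, 104, 104, and 173 CPM in icosapent ethyl–treated mice, with 1 LFD mouse reaching the lowest supplemented mice (log2 fold change 0.56 ± 0.192, adjusted p = 0.270).

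Among the 10 leading genes that were higher, *Lmln*, which encodes a metallopeptidase, was 13.9, 14.7, 8.82, and 15.0 CPM in LFD mice and 36.9, 28.1, 27.9, and 27.0 CPM in icosapent ethyl–treated mice (log2 fold change 1.2 ± 0.188). *Cdkn1c*, an inhibitor of cyclin-dependent kinases, was 218, 214, 247, and 314 CPM and 501, 355, 446, and 501 CPM (0.86 ± 0.154). *Gadd45g*, a stress- and growth-arrest-inducible gene, was 4.53, 4.84, 4.03, and 7.98 CPM and 16.9, 14.7, 14.1, and 10.3 CPM (1.39 ± 0.249). In all 3 genes the groups did not overlap, as the choice required. *Pdhx*, a structural component of the pyruvate dehydrogenase complex, was 38.2, 37.7, 36.1, and 39.7 CPM and 53.7, 47.5, 53.5, and 55.1 CPM, and its log2 fold change was 0.47 ± 0.0831. The remaining leading genes of this direction were *Slit1*, a guidance cue (0.73 ± 0.119), *Knop1* (0.59 ± 0.101), *Polh*, a translesion DNA polymerase (0.50 ± 0.0876), *Epn3*, an endocytic adaptor (1.07 ± 0.188), and *Kcnh1*, a potassium channel (2.21 ± 0.400), and *Kcnh1* did not exceed 0.536 CPM in any LFD mouse. All 10 had an adjusted p of 0.153 or 0.162 by edgeR and of at most 0.000631 by DESeq2.

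**Figure D1:**
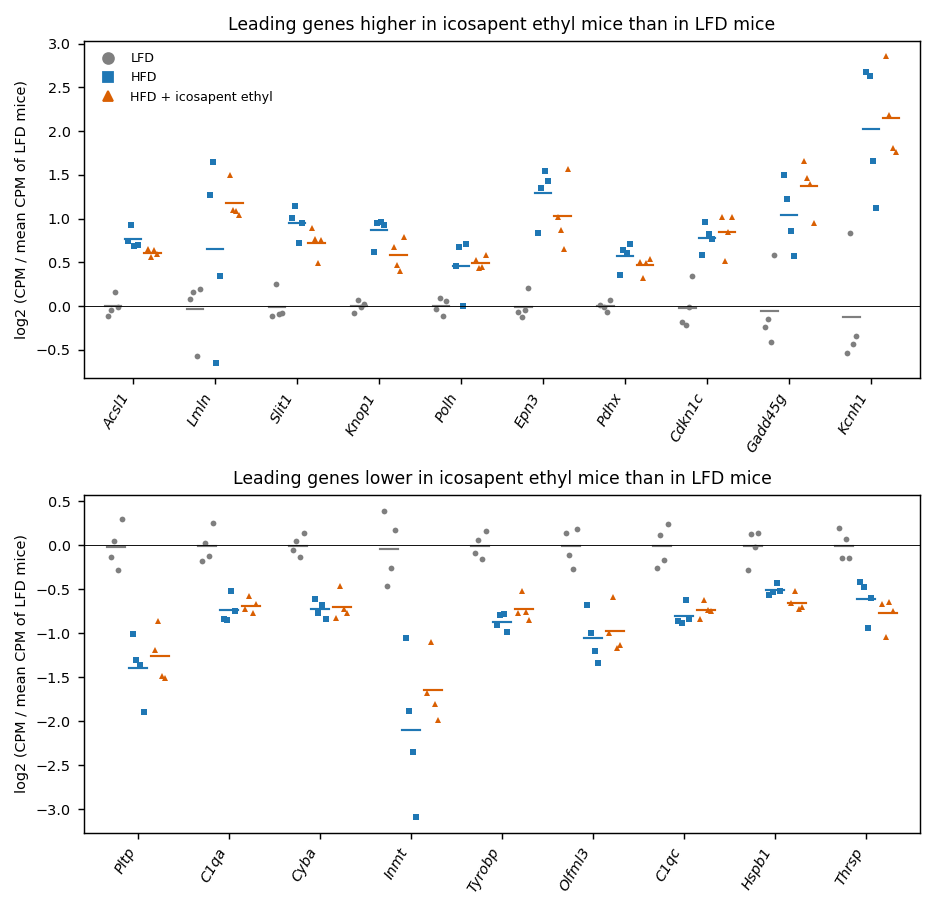
Expression of 10 leading genes that were higher and 9 that were lower, as the log2 ratio of CPM to the mean of the LFD mice (vertical axis), in LFD mice (circles), HFD mice (squares), and HFD mice with icosapent ethyl (triangles). Each point is 1 mouse and each bar the mean of the 4 log2 values. In all 19 genes the icosapent ethyl–treated mice lie on one side of the LFD mice, as the choice of these genes required, for example at 75.5 to 80.4 CPM for *Acsl1*.

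The leading genes that were lower held several genes of macrophages and complement. *C1qa*, a chain of the complement component C1q, was 127, 146, 132, and 171 CPM in LFD mice and 86.8, 96.2, 84.1, and 90.6 CPM in icosapent ethyl–treated mice (log2 fold change −0.69 ± 0.105). *C1qc* was 82.4, 107, 88.1, and 117 CPM and 55.3, 63.9, 59.2, and 58.5 CPM (−0.73 ± 0.120). *Tyrobp*, a signaling adaptor of myeloid receptors, was 32.9, 36.6, 31.3, and 39.3 CPM and 20.6, 24.4, 20.7, and 19.5 CPM (−0.72 ± 0.115). Every supplemented mouse was below every LFD mouse for these genes, as their choice required. *Cyba*, a subunit of the phagocyte NADPH oxidase, differed by −0.69 ± 0.106, and *Olfml3*, a secreted matrix protein, by −0.95 ± 0.153. *Hspb1*, a small heat shock protein (−0.65 ± 0.107), *Inmt*, an indole N-methyltransferase (−1.61 ± 0.257), and *Thrsp*, which promotes lipogenesis (−0.77 ± 0.127), were further genes of this direction, together with *Pltp*, the phospholipid transfer protein. *Pltp* was 52.6, 60.1, 47.7, and 71.3 CPM in LFD mice and 25.4, 31.8, 20.7, and 20.3 CPM in icosapent ethyl–treated mice (−1.24 ± 0.177). These 9 genes had an adjusted p of 0.153 by edgeR and of at most 0.000376 by DESeq2.

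The lower macrophage genes extended to a list of 16 genes known from lipid-laden macrophages. By the unadjusted p, 12 of the 16 were lower in icosapent ethyl–treated mice, against 6.67% of all genes, and 0 were higher. DESeq2 called 6 of them lower, against 2.69% of all genes called in either direction. The median log2 fold change of the 16 was −0.920. *Lgals3*, a galactoside-binding lectin, was 84.0, 105, 90.0, and 95.7 CPM in LFD mice and 31.7, 63.7, 39.7, and 38.9 CPM in icosapent ethyl–treated mice (−1.11 ± 0.197, adjusted p = 0.153). *Trem2*, a lipid-sensing receptor, was 16, 21.4, 17.5, and 21.8 CPM and 8.17, 14.7, 8.32, and 8.29 CPM (−0.96 ± 0.220, adjusted p = 0.188). *Cd5l*, a scavenger-like secreted protein, was 17.6, 25.2, 26.7, and 52.1 CPM and 0.664, 7.64, 2.22, and 1.65 CPM (−3.33 ± 0.687, adjusted p = 0.184, −4.31 without supplemented mouse 2). Supplemented mouse 2 was the highest of its group for all 3 genes, and the groups did not overlap. *Mmp12*, the macrophage elastase, was 66.1, 105, 83.5, and 102 CPM in LFD mice and 14.1, 55.9, 37.3, and 27.4 CPM in icosapent ethyl–treated mice (−1.40 ± 0.361).

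General macrophage markers did not all show this difference. The 16 markers summed to between 790.4 and 1172 CPM in LFD mice and to between 610.4 and 752 CPM in icosapent ethyl–treated mice, so that the sums did not overlap. Of the 15 that were tested, 8 were lower and 0 higher by the unadjusted p, against 6.67% and 7.29% of all genes. The median log2 fold change of the 15 was −0.508. *Cd68*, a lysosomal glycoprotein, was 30.7, 46.4, 34.8, and 45.1 CPM in LFD mice and 16.5, 28.6, 19.0, and 16.7 CPM in icosapent ethyl–treated mice (−0.96 ± 0.209), and *Aif1* differed by −0.64 ± 0.144 and *Lyz2*, lysozyme, by −0.67 ± 0.202. *Csf1r*, the receptor of the main macrophage growth factor, had a log2 fold change of −0.17 ± 0.135 (adjusted p = 0.595 by edgeR), and *Folr2*, of resident macrophages, one of 0.86 ± 0.463 (adjusted p = 0.420 by edgeR). Of the 7 genes of MHC class II antigen presentation, 6 were lower by the unadjusted p, against 6.67% of all genes. The median of the 7 was −0.350, with *H2-Aa* at −0.45 ± 0.124. Leaving out the fat-fed mice 1 and 2 left 2 supplemented mice. By the unadjusted p in this setting, 12 of 16 genes of the lipid-laden macrophage list and 7 of 15 macrophage markers were lower. So was 1 of 7 MHC class II genes. Of all 16410 genes tested in this setting, 1068 were lower.

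**Figure D2:**
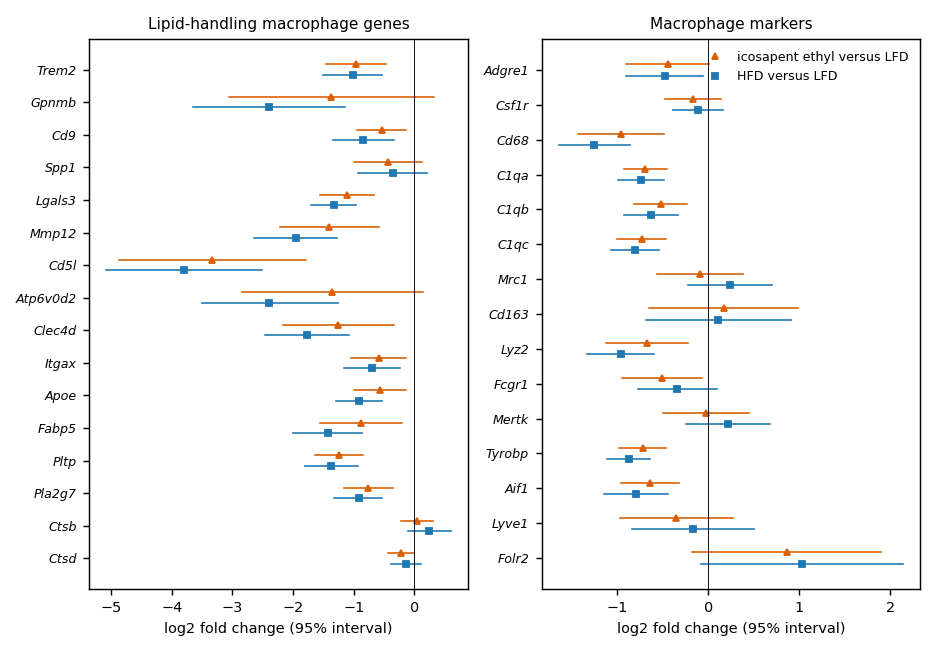
Log2 fold changes with 95% intervals (horizontal axis) of genes of lipid-laden macrophages (left) and of general macrophage markers (right), for icosapent ethyl–treated versus LFD mice (triangles) and HFD versus LFD mice (squares), 4 mice per group. Both comparisons use the same LFD mice. The intervals of *Cd68*, *C1qa*, and *Tyrobp* lie below 0 in both, while those of *Csf1r* and *Folr2* include 0.

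Some genes of cholesterol efflux, many of which are controlled by the oxysterol-sensing LXR receptors, had lower values as well. By the unadjusted p, 6 of 11 were lower, against 6.67% of all genes, and 1 was higher. Of the 11, 3 had a positive log2 fold change, and the median log2 fold change was −0.567. *Abcg1*, a cholesterol exporter, was 23.0, 28.3, 22.8, and 23.5 CPM in LFD mice and 15.0, 13.3, 14.4, and 9.61 CPM in icosapent ethyl–treated mice (−0.90 ± 0.159, adjusted p = 0.153). *Abca1*, the exporter to apolipoprotein A-I, was 197, 292, 208, and 245 CPM and 154, 111, 154, and 83.3 CPM (−0.90 ± 0.208, adjusted p = 0.188). Neither gene overlapped between the groups. *Mylip*, a ubiquitin ligase, differed by −0.60 ± 0.184, *Apoe* by −0.57 ± 0.188, and *Npc2*, a lysosomal cholesterol carrier, by −0.38 ± 0.0839. *Npc1*, its partner in the lysosomal membrane, had the opposite sign, at 0.46 ± 0.143. The macrophage sums given above moved with this list, and several of its members are expressed in macrophages as well as in other cells. Their part in it was not tested.

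Genes of mitochondrial fatty acid oxidation leaned to higher values in icosapent ethyl–treated mice. By the unadjusted p, 13 of the 21 tested were higher, against 7.29% of all genes, and 1 was lower. The median log2 fold change of the list was 0.318. All 14 genes of the oxidation steps had a positive log2 fold change. *Acadl*, long-chain acyl-CoA dehydrogenase, was 161, 207, 198, and 227 CPM in LFD mice and 277, 257, 360.4, and 339 CPM in icosapent ethyl–treated mice (0.64 ± 0.140, adjusted p = 0.184). *Hadhb*, the thiolase subunit of the trifunctional protein, was 171, 226, 209.7, and 255 CPM and 321, 269, 384, and 409.6 CPM (0.68 ± 0.159, adjusted p = 0.188), and its partner subunit *Hadha* differed by 0.60 ± 0.165. The groups did not overlap for these genes. In the carnitine shuttle, *Cpt1a*, the gate of entry, was 232, 365, 334, and 384 CPM in LFD mice and 467, 391, 468, and 484 CPM in icosapent ethyl–treated mice (0.46 ± 0.153), and *Cpt2* was 49.1, 55.8, 54.9, and 56.8 CPM and 72.2, 67.7, 76.2, and 65.4 CPM (0.38 ± 0.0864). *Cpt1c*, the brain-type paralog, was the member that was lower (−0.50 ± 0.129). Without the fat-fed mice 1 and 2, 13 genes were higher and 1 lower. Of all 16410 genes tested in this setting, 1066 were higher and 1068 lower.

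Fewer members of the adjoining pathways passed the unadjusted threshold. Of 16 known PPARα targets tested, 5 were higher and 0 lower by the unadjusted p, against 7.29% and 6.67% of all genes. Of 29 genes of pyruvate entry and the citric acid cycle, 4 were higher, *Pdhx* among them, against 7.29% of all genes, and 0 were lower. Without the fat-fed mice 1 and 2, 10 were higher, against 1066 of all 16410 genes tested in this setting. The median log2 fold change of the 29 was 0.257 without these mice and 0.178 with them. Of 47 respiratory chain subunits, 1 was higher and 1 lower, against 7.29% and 6.67% of all genes, and their median log2 fold change was −0.0511.

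Of 12 genes of triglyceride synthesis, 4 were higher, against 7.29% of all genes, and 0 lower by the unadjusted p, and the 4 did not overlap between the groups, against 4.04% of all genes. *Agpat3*, an acyltransferase of phosphatidic acid synthesis, was 153, 202, 182, and 203 CPM in LFD mice and 312, 243, 269.6, and 286 CPM in icosapent ethyl–treated mice (log2 fold change 0.59 ± 0.116, adjusted p = 0.184). *Gpam*, the mitochondrial enzyme of the first acylation, was 12.9, 20.3, 10.3, and 10.3 CPM and 101, 29.0, 29.1, and 37.8 CPM (1.87 ± 0.442). Supplemented mouse 1 stood above the others for *Gpam*, and the value without it was the lowest of those obtained by leaving out 1 mouse, 1.25. *Lpin2*, a phosphatidate phosphatase, differed by 0.62 ± 0.143, and *Dgat2*, the last acyltransferase, by 0.85 ± 0.274. On lipid droplets, *Plin4*, a coat protein, was 3.53, 6.82, 5.70, and 4.78 CPM in LFD mice and 16.1, 8.01, 11.5, and 10.8 CPM in icosapent ethyl–treated mice (1.16 ± 0.262), and *Lipe*, hormone-sensitive lipase, was 57.0, 61.0, 52.7, and 51.0 CPM and 94.5, 79.0, 66.5, and 104 CPM (0.64 ± 0.140).

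Genes of fatty acid desaturation differed in both directions. *Scd1*, which introduces the first double bond into saturated fatty acids, was 282, 292, 366, and 281 CPM in LFD mice and 172, 163, 159.7, and 219 CPM in icosapent ethyl–treated mice (log2 fold change −0.77 ± 0.130, adjusted p = 0.153). *Fads6*, a less studied member of the desaturase family, was 88.5, 117, 91.0, and 86.6 CPM and 193, 138, 130.2, and 147 CPM (0.67 ± 0.146, adjusted p = 0.184). Neither overlapped between the groups. For *Fads2*, the rate-limiting desaturase of polyunsaturated fatty acid synthesis, supplemented mouse 2 lay within the range of the LFD mice and the others above it (0.69 ± 0.30, adjusted p = 0.352). *Fads1*, the next desaturase, was 763, 976, 1059, and 1153 CPM in LFD mice and 1110, 828, 1140, and 1645 CPM in icosapent ethyl–treated mice, with overlapping groups (0.26 ± 0.204, adjusted p = 0.579). *Fabp3*, a fatty acid–binding protein, was 6.43, 6.77, 9.37, and 10.6 CPM and 3.53, 3.69, 4.70, and 2.99 CPM (−1.15 ± 0.224, adjusted p = 0.184).

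Of 25 genes of cholesterol synthesis tested, 10 were higher and 0 lower by the unadjusted p, against 7.29% and 6.67% of all genes. The median log2 fold change of the 25 was 0.354. DESeq2 called 0 of these genes, against 2.69% of all genes. *Sqle*, squalene epoxidase, was 20.4, 30.7, 25.5, and 27.9 CPM in LFD mice and 36.9, 30.9, 36.9, and 65.7 CPM in icosapent ethyl–treated mice (0.71 ± 0.235), with 1 supplemented mouse close to the highest LFD mouse. *Fdps*, farnesyl diphosphate synthase, differed by 1.04 ± 0.430, and *Mvd*, which completes the mevalonate branch, by 0.70 ± 0.215. Without the fat-fed mice 1 and 2, 8 were higher and 0 lower, against 1066 and 1068 of all 16410 genes tested in this setting.

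**Figure D3:**
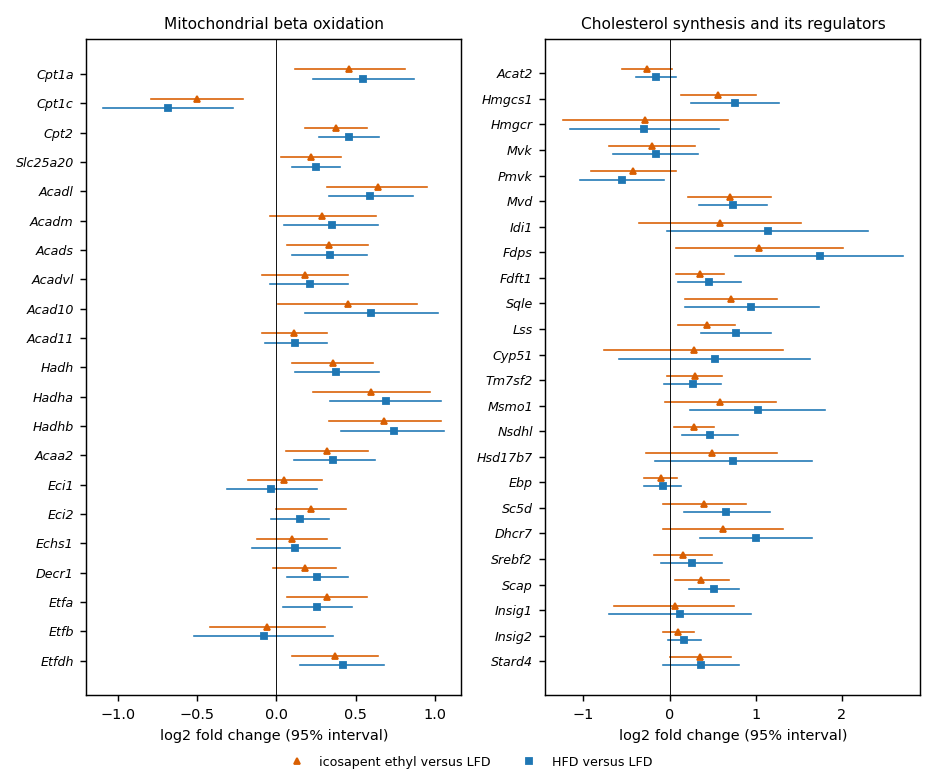
Log2 fold changes with 95% intervals (horizontal axis) of genes of mitochondrial beta oxidation (left) and of cholesterol synthesis with its regulators (right), for icosapent ethyl–treated versus LFD mice (triangles) and HFD versus LFD mice (squares), 4 mice per group. Both comparisons use the same LFD mice. In both comparisons the interval of *Acadl* lies above 0 and that of *Cpt1c* below 0.

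Of 19 steroidogenic genes, 4 were higher, against 7.29% of all genes, and 1 was lower by the unadjusted p, and the median log2 fold change was 0.201. Without the fat-fed mice 1 and 2, which leaves 2 supplemented mice, 8 were higher and 1 lower, with a median of 0.396. Of all 16410 genes tested in this setting, 1066 were higher and 1068 lower. *Cyp11b1*, the enzyme that completes corticosterone, was 3825, 5730, 4750, and 6359 CPM in LFD mice and 7827, 6263, 7877, and 9459 CPM in icosapent ethyl–treated mice (0.61 ± 0.176, adjusted p = 0.241), with a small overlap. *Fdxr*, which feeds electrons to the mitochondrial enzymes, was 1436, 1591, 1689, and 1826 CPM and 2059, 1992, 2238, and 2440 CPM, with no overlap (0.42 ± 0.104, adjusted p = 0.202). *Hsd3b6*, a 3β-hydroxysteroid dehydrogenase of the zona glomerulosa, was 137, 146, 72.0, and 131 CPM and 65.8, 69.4, 53.7, and 60.3 CPM (−0.96 ± 0.203, adjusted p = 0.184). It was the member that was lower, and its sequence is close to that of *Hsd3b1*, so reads shared by the 2 genes could not be reassigned.

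*Cyp21a1*, the 21-hydroxylase, and *Mc2r*, the ACTH receptor, were the other members that were higher, at 0.31 ± 0.110 and 0.41 ± 0.124. *Star*, which moves cholesterol into mitochondria, was 6842, 12452, 12918, and 20523 CPM in LFD mice and 20172, 12023, 25844, and 32915 CPM in icosapent ethyl–treated mice. Its groups overlapped (0.79 ± 0.364, adjusted p = 0.371), and so did those of *Cyp11a1*, the side-chain cleavage enzyme (0.31 ± 0.155). The HDL receptor *Scarb1* had a log2 fold change of 0.43 ± 0.284 and *Hsd3b1* one of 0.20 ± 0.128. *Cyp11b2*, aldosterone synthase, was at −0.00 ± 0.116, with a 95% interval of −0.26 to 0.26. The electron carriers *Fdx1* and *Por* were at 0.41 ± 0.440 and 0.00 ± 0.527, the accessory protein of the ACTH receptor *Mrap* at 0.19 ± 0.477, and the nuclear receptors *Nr5a1* and *Nr0b1* at 0.22 ± 0.390 and −0.04 ± 0.278. *Tspo*, *Stard3*, and *Akr1b7* lay between −0.01 and 0.11.

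Outside lipid metabolism, all 15 cell cycle genes had a positive log2 fold change. By the unadjusted p, 7 were higher, against 7.29% of all genes. DESeq2 called 5 of the 15 higher, against 2.69% of all genes called in either direction. *Mki67*, a marker of dividing cells, was 1.62, 1.03, 1.16, and 1.31 CPM in LFD mice and 4.14, 1.58, 5.07, and 2.31 CPM in icosapent ethyl–treated mice, and *Top2a*, a topoisomerase of dividing cells, was 2.52, 2.19, 2.14, and 2.50 CPM and 6.66, 2.61, 5.49, and 3.94 CPM. Supplemented mouse 2 was the lowest of its group for both genes and lay within the range of the LFD mice for *Mki67*. Their log2 fold changes were 1.36 ± 0.365 and 1.0 ± 0.281 (adjusted p = 0.230 and 0.237 by edgeR). In retinoid metabolism, 2 of 15 genes were higher and 5 lower by the unadjusted p, against 7.29% and 6.67% of all genes. *Adh7* and *Adh1*, which oxidize retinol and other alcohols, were the higher genes, at 1.59 ± 0.310 and 1.99 ± 0.532. *Adh1* was 232, 312, 337, and 359 CPM in LFD mice and 2829, 448, 613, and 1044 CPM in icosapent ethyl–treated mice, with mouse 1 far above the others, and the log2 fold change without this mouse was 1.18. *Dhrs3*, a retinaldehyde reductase, was lower by 0.39 on the log2 scale (log2 fold change −0.39 ± 0.104).

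In eicosanoid synthesis, 4 of 15 genes were lower and 1 was higher by the unadjusted p, against 6.67% and 7.29% of all genes. *Alox5ap*, which presents arachidonic acid to 5-lipoxygenase, was 14.0, 13.4, 13.1, and 14.9 CPM in LFD mice and 10.2, 10.5, 8.34, and 9.32 CPM in icosapent ethyl–treated mice (log2 fold change −0.54 ± 0.128, adjusted p = 0.192), *Ptgds*, prostaglandin D2 synthase, differed by −1.13 ± 0.274, and *Ltc4s*, leukotriene C4 synthase, by 0.68 ± 0.250. Of 16 interferon-inducible genes, 6 were lower and 0 higher by the unadjusted p, against 6.67% and 7.29% of all genes. DESeq2 called 0 of the 16, against 2.69% of all genes. Among the 16, *Oasl2* was at −0.45 ± 0.132 and *Ifit1* at −0.57 ± 0.163. *Gpx3*, a secreted glutathione peroxidase, was 147, 141, 139, and 157 CPM in LFD mice and 91.5, 119, 98.5, and 102 CPM in icosapent ethyl–treated mice (−0.50 ± 0.0958, adjusted p = 0.184).

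The question which changes of the HFD remained under supplementation was addressed with the HFD mice. In HFD versus LFD mice, 230 of 15909 genes (1.45%) passed the threshold by edgeR, of which 155 rose and 75 fell. This number was between 0 and 918 when 1 mouse was left out. By edgeR, 0 genes passed the threshold in both comparisons with LFD mice, because 0 passed it with supplementation. By DESeq2, 357 genes passed with the same sign in both, which were 85.6% of the 417 genes of the supplemented mice and 18.2% of the 1965 genes (12.3% of those tested) of the HFD mice. Both comparisons share the LFD mice, and the lists differ in size, so these shares do not measure agreement between the 2 diets. Among the 155 genes that rose in HFD mice, the median log2 fold change against LFD was 0.689 without and 0.532 with supplementation, and among the 75 that fell it was −0.873 without and −0.670 with it. The genes were chosen on the HFD and LFD mice, and the same LFD mice are the reference of both medians, so the choice enlarges both, and no value expected without a diet effect is given.

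The test of the difference between the 2 fat-fed groups called 0 of 15913 genes by edgeR (0%). By the same test, 221 genes (1.39%) had an unadjusted p below 0.05. DESeq2 called 7 of 26076 genes (0.0268%). The median absolute log2 fold change between these groups was 0.107, with a median SE of 0.191. The 95% interval of this difference was −0.32 to 0.02 on the log2 scale for *Acsl1*, which was 85.8, 97.0, 82.2, and 83.0 CPM in HFD mice. For *C1qa*, *Tyrobp*, and *Pltp*, the intervals spanned −0.16 to 0.26, −0.10 to 0.40, and −0.36 to 0.60. For *Abcg1* the interval was −0.40 to 0.42, for *Acadl* −0.26 to 0.34, and for *Cyp11b1* −0.49 to 0.26. These bounds limit the difference between the fat-fed groups and do not show that it is absent.

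Genes were also listed by their difference between the fat-fed groups. From the genes past the threshold in HFD mice that are protein-coding with an assigned symbol, have a mean of at least 1 CPM, and do not overlap between HFD and LFD mice, the 8 with the largest log2 difference from HFD toward LFD mice were *Ccnf*, *Cited2*, *Xdh*, *Micall2*, *Nt5e*, *Eva1c*, *Gas7*, and *Mmp12*. They were chosen for this difference and for their HFD values, so their intervals and any lack of overlap are descriptions that the choice favours, not tests. *Cited2*, a transcriptional coregulator, was 50.8, 74.5, 92.1, and 80.7 CPM in LFD mice, 127, 139.9, 191, and 167 CPM in HFD mice, and 125, 81.2, 86.8, and 102 CPM in icosapent ethyl–treated mice. The interval of its difference between the fat-fed groups was −1.04 to −0.28. *Ccnf*, a cyclin, was 1.60, 1.54, 1.51, and 1.28 CPM, 3.19, 2.94, 4.72, and 4.70 CPM, and 2.73, 2.0, 1.51, and 2.67 CPM in these groups, with an interval of −1.39 to −0.21. In both genes every supplemented mouse was below every HFD mouse. *Xdh*, xanthine dehydrogenase, was 208, 67.6, 114, and 159 CPM in icosapent ethyl–treated mice and 96.8, 234, 279, and 258 CPM in HFD mice, with overlap and an interval of −1.55 to 0.23. The intervals of *Micall2*, *Nt5e*, *Eva1c*, and *Mmp12* likewise included 0, and that of *Gas7* was −1.12 to −0.03.

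The study names *Acsl4*, *Elovl2*, *Plin2*, and *Lpcat3* for icosapent ethyl, and because it chose them on these samples they are given as a description. *Plin2*, the main droplet coat protein of the adrenal, was 275, 341, 305, and 333 CPM in LFD mice, 425, 456, 432, and 459 CPM in HFD mice, and 392, 407, 326, and 346 CPM in icosapent ethyl–treated mice. The supplemented mice thus lay below all HFD mice and overlapped with the LFD mice (log2 fold change versus LFD 0.23 ± 0.104, interval versus HFD −0.47 to −0.07). *Lpcat3*, which inserts polyunsaturated fatty acids into phospholipids, was 71.4, 95.4, 88.8, and 96.9 CPM in LFD mice, 85.4, 100.3, 132, and 108 CPM in HFD mice, and 77.6, 79.1, 80.3, and 96.5 CPM in icosapent ethyl–treated mice (versus LFD −0.08 ± 0.118, interval versus HFD −0.66 to −0.04). *Elovl2*, which elongates polyunsaturated fatty acids, was 0.903, 0.536, 0.557, and 0.428 CPM in LFD mice, 0.341, 0.174, 0.292, and 0.226 CPM in HFD mice, and 0.372, 0.395, 0.565, and 0.468 CPM in icosapent ethyl–treated mice (versus LFD −0.42 ± 0.298, interval versus HFD 0.14 to 1.48). Every supplemented mouse was above every HFD mouse for *Elovl2*, at under 1 CPM throughout, whereas the fat-fed groups overlapped for *Lpcat3*. *Acsl4*, which prefers arachidonic acid as a substrate, differed by 0.49 ± 0.198 from LFD mice, and its interval versus HFD was −0.73 to 0.16. Compared with HFD mice, 1 of the 4 genes was higher and 2 were lower by the unadjusted p, against 0.672% and 0.716% of all genes. By edgeR, 0 of the 4 passed the threshold. For *Fads2* and *Fads1*, the intervals of supplemented versus HFD mice, −1.44 to 0.34 and −1.30 to 0.18, included 0.

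The study also names 19 genes for the HFD, chosen on the same HFD and LFD mice. By the unadjusted p, 12 of them were higher and 5 lower in icosapent ethyl–treated than in LFD mice, against 7.29% and 6.67% of all genes. Past the threshold in HFD mice, 8 rose and 5 fell, against 1.45% of all genes. The study chose these genes for their change in these HFD and LFD mice. The same LFD mice are the reference of both comparisons, so the choice favours the counts of both. In HFD mice, *Fabp3* fell (log2 fold change versus LFD −1.52), and *Fads6*, *Agpat3*, and *Cpt2* rose (0.78, 0.69, and 0.46). Besides genes described above, the higher ones included *Fitm2*, a droplet-forming protein (0.59 ± 0.179), *Elovl1* (0.19 ± 0.0776), and *Lep*, the adipocyte hormone leptin, at 3.25, 0.407, 0.713, and 0.428 CPM in LFD mice and 10.7, 4.66, 10.4, and 9.35 CPM in icosapent ethyl–treated mice (2.85 ± 0.666, 4.08 without LFD mouse 2). The adipocyte marker sums given above overlapped between these groups. The lower ones included *Pla2g7* (−0.76 ± 0.178) and *Fabp5* (−0.88 ± 0.301), and *Acsl6*, which was not among them, had a log2 fold change of −0.70 ± 0.355.

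**Figure D4:**
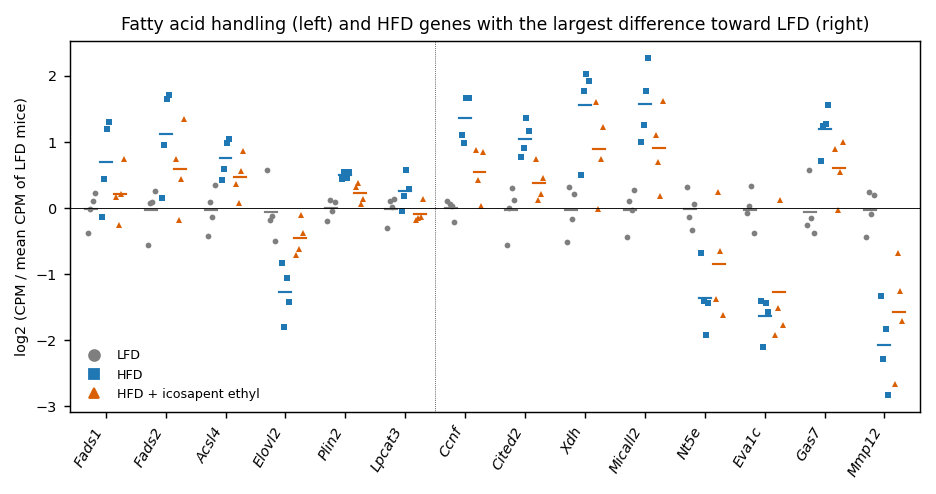
Expression as the log2 ratio of CPM to the mean of the LFD mice (vertical axis) of 6 genes of fatty acid handling (left of the dotted line) and of the 8 HFD genes with the largest difference from HFD toward LFD mice under supplementation (right), in LFD mice (circles), HFD mice (squares), and HFD mice with icosapent ethyl (triangles). Each point is 1 mouse and each bar the mean of the 4 log2 values. The supplemented mice lie between the other groups by their means for *Cited2* and *Plin2*, and 1 supplemented mouse, at 15.2 CPM, stands apart for *Eva1c*.

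Groups of genes separated single mice within the fat-fed groups. *Fos*, an immediate early gene, was 8.20, 7.16, 11.1, and 11.4 CPM in LFD mice, 316, 331, 28.1, and 10.1 CPM in icosapent ethyl–treated mice 1 to 4, and 426, 319, 12.3, and 15.0 CPM in HFD mice 1 to 4. *Junb* was 38.3, 50.8, 45.1, and 67.3 CPM in LFD mice and 1364, 762, 314, and 44.0 CPM in icosapent ethyl–treated mice. For *Fos*, mice 1 and 2 of both fat-fed groups were high and mouse 4 of each was within or close to the range of the LFD mice, and for *Junb* supplemented mouse 3 was high as well. The log2 fold changes of *Fos*, *Junb*, and *Egr1* were 4.18 ± 1.06, 3.63 ± 0.863, and 2.14 ± 0.815 (adjusted p = 0.224 and 0.202 by edgeR for *Fos* and *Junb*), and 1.01, 1.83, and 0.91 without the fat-fed mice 1 and 2. Of 15 immediate early genes, 7 were higher and 0 lower by the unadjusted p, against 7.29% and 6.67% of all genes. Without the fat-fed mice 1 and 2, 2 were higher and 0 lower, against 1066 and 1068 of all 16410 genes tested in this setting. These mice were left out for their high immediate early genes, so the lower counts and fold changes without them follow from that choice.

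Markers of mesothelial cells, which cover the organ surface, followed mice as well. *Upk3b* was 2.88, 0.386, 0.690, and 0.0951 CPM in LFD mice, 14.2, 9.43, 1.94, and 3.12 CPM in icosapent ethyl–treated mice, and at most 1.14 CPM in HFD mice, and *Upk1b*, *Krt7*, and *Krt19* had log2 fold changes versus LFD of 3.02 ± 0.860, 1.39 ± 0.570, and 2.32 ± 0.904. Without the fat-fed mice 1 and 2, the log2 fold changes of *Upk3b*, *Upk1b*, *Krt7*, and *Krt19* were 1.3, 1.57, 0.48, and 0.16, and without LFD mouse 2 those of *Upk3b*, *Upk1b*, and *Krt19* were 4.17, 4.57, and 3.40. The 8 mesothelial markers summed to between 11.5 and 22.0 CPM in LFD mice and to between 16.7 and 45.0 CPM in icosapent ethyl–treated mice. The chromaffin genes *Th* and *Dbh* of catecholamine synthesis overlapped between the groups, with *Th* at 813, 521, 888, and 271 CPM in LFD mice and 359, 434, 488, and 251 CPM in icosapent ethyl–treated mice (log2 fold change −0.70 ± 0.352). Of the 12 chromaffin markers, 1 was lower by the unadjusted p, against 6.67% of all genes, and all 12 had a negative log2 fold change.

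Among clock genes, *Dbp*, an output gene of the circadian clock, was 75.6, 65.9, 80.3, and 71.7 CPM in LFD mice, 118, 142, 79.2, and 75.2 CPM in HFD mice, and 225, 151, 106, and 122 CPM in icosapent ethyl–treated mice, all of them above the LFD mice (log2 fold change 1.04 ± 0.211, adjusted p = 0.184). *Bhlhe41*, a clock repressor, was also higher (1.16 ± 0.305), and *Cry1*, another repressor, was lower (−0.67 ± 0.204). Of 17 clock genes, 4 were higher and 1 lower by the unadjusted p, against 7.29% and 6.67% of all genes. The hour of tissue collection was not given in the sources used here. *Cyp26b1*, which degrades retinoic acid, was 12.4, 48.0, 16.5, and 9.20 CPM in LFD mice, 18.4, 82.2, 5.43, and 4.91 CPM in HFD mice, and 8.04, 8.04, 7.10, and 4.94 CPM in icosapent ethyl–treated mice (versus LFD −1.61 ± 0.487, adjusted p = 0.255). LFD mouse 5 stood above the other LFD mice, and without it the log2 fold change was −0.85.

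**Figure D5:**
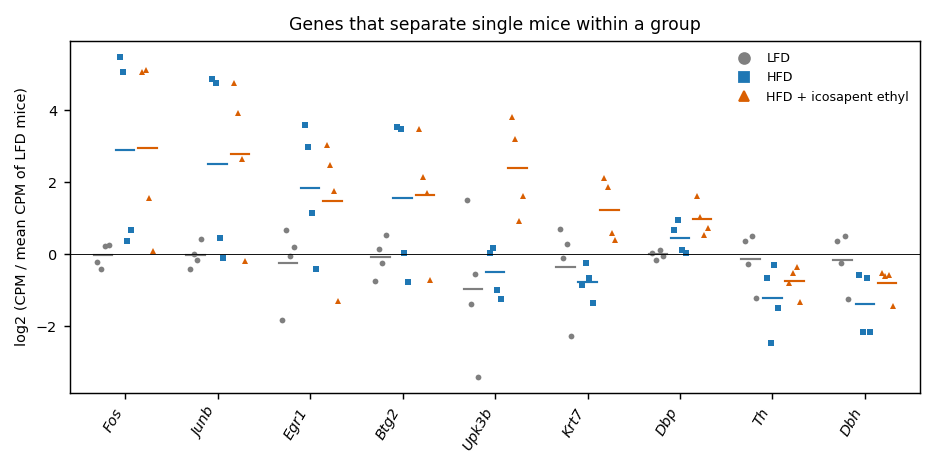
Expression as the log2 ratio of CPM to the mean of the LFD mice (vertical axis) of immediate early genes (*Fos*, *Junb*, *Egr1*, *Btg2*), mesothelial markers (*Upk3b*, *Krt7*), the clock gene *Dbp*, and chromaffin genes (*Th*, *Dbh*), in LFD mice (circles), HFD mice (squares), and HFD mice with icosapent ethyl (triangles). Each point is 1 mouse and each bar the mean of the 4 log2 values. For *Fos*, 2 mice of each fat-fed group, at 316 to 426 CPM, stand above the other mice.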

How the data were processed

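RNA of the adrenal cortex was sequenced as 1 library per mouse. The authors trimmed reads with cutadapt, mapped them to GRCm38 by STAR, counted reads per GENCODE M12 gene with HTSeq 0.6.1p1, and deposited raw counts per gene and mouse. Strand was used in the counting. Each file held whole numbers for 49585 genes and no measurement beside the counts. Symbols and coordinates were found for 49326 of them in GENCODE M21 (GRCm38). No 2 libraries were copies (lowest chi-square per degree of freedom 26.5 over 66 pairs).

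The counts were compared by the quasi-likelihood test of edgeR 4.0.16 (R 4.3.3), with TMM scaling, robust estimation, filterByExpr at 10 counts, and Benjamini-Hochberg adjustment over all genes tested at a threshold of 0.05, on the 8 mice of each comparison without covariates. SE is the log2 fold change divided by the square root of F, and the 95% interval uses the t distribution of the same fit. P-values measure the spread between 4 mice per group. CPM were scaled over all 12 mice. The procedure was run on simulated counts with 200 genes changed, drawn independently for each gene and mouse. That run does not measure power or error rates for these data. Alternatives were DESeq2 1.42.0, limma-voom with quality weights (limma 3.58.1), other scalings, filters, thresholds, and mice left out. The comparison, gene lists, and motifs were chosen with earlier results of these data known. Genes were named by rule: 10 per direction by the lowest unadjusted p, since 0 passed, with at least 1 CPM, a symbol, and no overlap of the groups, the 8 HFD genes under the same conditions with the largest icosapent ethyl versus HFD difference toward LFD, the 4 most significant of each list, the steroidogenic genes, and the genes the study names. Other genes, the promoters included, were named after their values were seen. Some genes that the rule or the lists hold are not reported here, and they remain in the counts. Lists are described by counts and medians without a set test. Promoter sequences are from RefSeq on GRCm38.p6, restricted to 250 bases before the start.

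Icosapent ethyl–treated and HFD mice are both numbered 1 to 4. After subtraction of the group means, pairs with one number correlated at 0.249, 0.111, 0.34, and 0.629, all above 0.1, so the numbers were treated as pairs in an alternative with a replicate block. No correlation was computed between mice with different numbers, so these values do not show that the numbers are pairs. Whether the numbers mark a shared batch is not given in the sources used here. LFD and icosapent ethyl–treated mice share only the number 2.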

Additional observations from a re-analysis of the deposited data

Results flagged for a closer look

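Single mice stood apart from the other 3 of their group in 21 of 266 groups of 4 that were examined because the gap to the next mouse took up most of the group's range (Dixon's test), where chance gives about 1 in 20. In LFD mice, mouse 5 was the highest for *Abcg1* (28.3 CPM), *Fads6* (117 CPM), *Kcnh1* (0.536 CPM), and *Slit1* (46.7 CPM), mouse 2 for *Krt19* (0.677 CPM), *Lep* (3.25 CPM), *Upk1b* (0.451 CPM), and the total count (46874227), mouse 6 for *Scd1* (366 CPM), and mouse 7 for *Cyp11b2* (334 CPM), and mouse 7 was the lowest for *Ifit1* (22.8 CPM). In icosapent ethyl–treated mice, mouse 1 was the highest for *Gpam* (101 CPM) and *Lmln* (36.9 CPM), and mouse 3 for *Eva1c* (15.2 CPM). Mouse 2 was the highest for *Fabp5* (27.0 CPM), *Lyz2* (329.7 CPM), *Trem2* (14.7 CPM), and the summed macrophage markers (752 CPM, against at most 619 CPM in the others). Mouse 4 was the highest for *Lpcat3* (96.5 CPM) and the summed kidney and liver markers (13.3 CPM, against at most 0.545 CPM), and the lowest for *Dbh* (344 CPM).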

How the results depend on the processing

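Against LFD mice, 0 genes passed the threshold for icosapent ethyl–treated mice by edgeR, 417 by DESeq2, 2 (*Acsl1* among them) with all 12 mice in 1 fit, and 0 to 1 with 1 mouse left out, the 1 being *Lgals3* without supplemented mouse 2. For HFD mice, 230 became 1965 by DESeq2, 84 with library totals (40 higher and 44 lower), 556 with all 12 mice in 1 fit, 1111 by limma-voom, 1396 at an adjusted p of 0.1, 1040 without the fat-fed mice 1 and 2 (an alternative chosen after seeing the data), and 0 to 918 with 1 mouse left out. It was 0 without HFD mouse 2, 3, or 4 or LFD mouse 5, 6, or 7, 78 without LFD mouse 2, and 918 without HFD mouse 1. Between the fat-fed groups, 0 became 7 by DESeq2 and was 0 with the replicate block on the paired numbers, which changed no call. Genes past the threshold in both comparisons with LFD numbered 0, 357 by DESeq2, 2 with all 12 mice in 1 fit, and 0 to 1 with 1 mouse left out. The cause of these shifts was not tested.

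Of 1950 values of 115 genes under alternatives, 1852 kept their sign and side of the threshold, 60 passed it, and 38 turned their sign, in 10 genes, each with an SE larger than its log2 fold change. With 1 mouse left out, *Akr1b7* ranged from −0.00 to 0.26, *Cyp11b2* from −0.07 to 0.10, *Fdx1* from −0.03 to 0.68, *Mrap* from −0.06 to 0.51, *Nr0b1* from −0.38 to 0.10, *Nr5a1* from −0.03 to 0.54, *Por* from −0.50 to 0.36, *Stard3* from −0.05 to 0.07, and *Tspo* from −0.09 to 0.03. By limma-voom, *Fdx1* was −0.00, *Mrap* −0.17, *Por* −0.47, and *Stard3* −0.00. *Cyp11b2* was 0.01 by DESeq2 and 0.00 with DESeq2 size factors or no filter, *Por* −0.06 and *Stard3* −0.02 with library totals, and *Por* −0.00 with 10 counts in every mouse. Without the fat-fed mice 1 and 2, *Cyp11b2* was 0.07, *Lpcat3* 0.01, *Stard3* −0.11, and *Tspo* 0.10. Depth differed by up to 1.93 times between libraries, and 4 mice per group limit every comparison.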
